A study of Mus musculus with 2 samples.

Results

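Transcripts of 6 S100 calcium-binding genes were followed through the cell classes of mouse blood: S100a8, S100a9, S100a4, S100a6, S100a10 and S100a11. The genes were chosen by name as the S100 members with known roles in leukocytes, 6 of the 31053 genes listed in each library, and all 6 are described here whatever their level. Blood came from db/db mice, an obese model of type 2 diabetes that carries a mutation of the leptin receptor gene Lepr, and from wild-type (wt) mice. Mice of both groups were male, of strain C57BLKs/J and 21 weeks old, with no treatment named. Each group gave 1 droplet single-cell library, made from 200 µl of blood and, per the labels, 3 mice, after lysis of the red cells. Nothing maps a cell to a mouse, so there was no replicate, no test was made, and every interval below is a 95% interval of counting error only.

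S100 proteins are small proteins that bind calcium through a pair of EF-hand loops and mostly act as dimers. S100a8 and S100a9 pair to form calprotectin, which fills the cytosol of neutrophils, withholds zinc and manganese from microbes and, once released, signals through Tlr4 and the receptor for advanced glycation end products. S100a4 binds non-muscle myosin and is linked to cell movement, S100a6 (calcyclin) binds Cacybp, S100a10 (p11) has lost calcium binding and joins annexin A2 at membranes, and S100a11 binds annexin A1.

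The genes lie in a family cluster on mouse chromosome 3. In GENCODE coordinates on GRCm38, S100a4 spans chr3:90603771-90606045 and S100a6 chr3:90612882-90624181, both on the plus strand, with 6836 bp between them. S100a8 follows at chr3:90668978-90670035 on the plus strand, and S100a9 at chr3:90692632-90695721 on the minus strand, 22596 bp further on. S100a11 (chr3:93520488-93526287) and S100a10 (chr3:93555080-93564643), both on the plus strand, stand apart from these at the far end of a stretch of 2960873 bp. Promoter windows of the 4 members nearest each other are shown because S100a8 and S100a9 had alike patterns across the blood while S100a4 and S100a6 did not. Each window is RefSeq sequence on GRCm38.p6, 120 bases that end 15 bases past the annotated start, with the letters TATAAA in capitals.
S100a8 (plus strand, chr3:90668966-90669085): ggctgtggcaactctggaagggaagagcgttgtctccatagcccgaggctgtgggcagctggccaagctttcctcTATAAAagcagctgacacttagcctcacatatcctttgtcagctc
S100a9 (minus strand, chr3:90695707-90695826): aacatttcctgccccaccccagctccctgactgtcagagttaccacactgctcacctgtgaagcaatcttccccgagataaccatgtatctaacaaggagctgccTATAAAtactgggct
S100a4 (plus strand, chr3:90603665-90603784): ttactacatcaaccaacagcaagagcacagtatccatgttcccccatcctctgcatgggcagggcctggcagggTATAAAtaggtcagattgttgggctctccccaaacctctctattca
S100a6 (plus strand, chr3:90612789-90612908): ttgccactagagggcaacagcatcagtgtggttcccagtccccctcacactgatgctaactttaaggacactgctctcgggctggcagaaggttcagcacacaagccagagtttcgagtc
TATAAA, the core of a TATA box, starts at -30 in the S100a8 window, at -31 in the S100a4 window and at the annotated start itself in the S100a9 window, and is absent from those of S100a6 and S100a11. On either strand, 6.17% of all 32851 windows of this length hold it. TTGCNNAA, the core of a C/EBP site, searched on both strands as well, is in 4.07% of all windows and in none of the 5 windows read. GAGGAA, a PU.1 core, is in 11.9% of all windows and in the S100a8 window alone, on the reverse strand just before the TATAAA letters and not overlapping them. The table used held 5 of the 6 members, and the missing one was S100a10.

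Depth was 70039773 unique molecular identifiers (UMIs), each standing for 1 captured transcript, over 19912 barcodes in db/db, and 50540198 UMIs over 16700 barcodes in wt. Barcodes with 200 to 6000 genes and under 10% mitochondrial UMIs were kept, 6109 in db/db and 5727 in wt, with a median of 2523 and 2562 UMIs. Haemoglobin took 77.2% of all db/db UMIs and 69.4% of all wt UMIs. Gm42418, a gene to which ribosomal RNA maps, had a median share of 0.533% in kept db/db barcodes and 2.64% in kept wt barcodes, and the B cell cluster it led was left out as an alternative. The libraries shared 91 barcode sequences, 11 of them kept in both. Lepr had 0 UMIs in both libraries, and as tags come from the 3′ end, that says nothing on the genotype. Clusters were computed without any S100 gene and named from marker lists that hold none, which gave 356 and 163 neutrophils, 368 and 124 monocytes, 2157 and 2517 B cells, 531 and 716 T cells, 55 and 104 NK cells, 1143 and 296 platelet barcodes and 1358 and 1762 erythroid barcodes in db/db and wt. A further cluster with kidney tubule markers held 114 db/db and 4 wt barcodes and is not compared.

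S100a8 and S100a9 were neutrophil transcripts, S100a4 was a monocyte transcript, S100a6 and S100a11 were highest in neutrophils and then in monocytes, and S100a10 was highest in NK cells and platelets. Levels are a gene's UMIs per 1000000 UMIs of the class in that library (CPM). One UMI marks the 3′ end of 1 transcript, and levels are compared across classes within a gene, not between genes. Neutrophils held 97.7% of the S100a8 UMIs of kept db/db barcodes and 98.1% of those of wt, and 98.0% and 98.5% of the S100a9 UMIs. Monocytes held 85.3% of the S100a4 UMIs in db/db and 47.5% in wt, where T cells held 28.4%.

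The leading classes of S100a4, S100a6 and S100a11 were the same in both libraries. S100a4 stood at 1783 CPM in db/db monocytes and 996 CPM in wt monocytes, then at 155 and 167 CPM in NK cells, 136 and 121 CPM in T cells, 41.2 and 28.1 CPM in B cells, and 5.21 and 3.74 CPM in erythroid barcodes, with NK and T cells overlapping in both. Platelet barcodes had 7.03 CPM of S100a4 in db/db and 45.3 CPM in wt, where they overlapped with B cells. S100a6 stood at 4013 and 2869 CPM in neutrophils, 1915 and 1308 CPM in monocytes and 650 and 459 CPM in NK cells. Next came B cells at 185 CPM and T cells at 170 CPM in db/db, with overlapping intervals, and T cells at 161 CPM and B cells at 104.5 CPM in wt, without overlap. Platelet barcodes had 29.4 and 54.3 CPM and erythroid barcodes 22.9 and 15.7 CPM, overlapping in db/db only. S100a11 ran from neutrophils (4233 and 4095 CPM) through monocytes (577 and 434), NK cells (264 and 295), B cells (154 and 159), T cells (114 and 118) and platelets (51.4 and 49.8) to erythroid barcodes (29.4 and 25.9), and no neighbours in that order had overlapping intervals. These orders are per all UMIs of a class, and haemoglobin takes a large share of them in platelet and erythroid barcodes. Per 1000000 UMIs other than haemoglobin, S100a11 was at 115 and 93.7 in platelet barcodes and higher, at 121 and 111, in erythroid barcodes. In db/db that scale also put erythroid above platelet barcodes for S100a6 (94.5 and 65.6) and S100a4 (21.4 and 15.7), and T cells above B cells for S100a6 (212 and 193).

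Outside neutrophils and db/db monocytes, S100a8 and S100a9 were low everywhere. S100a8 had 14.8 CPM in db/db T cells, 13.4 in erythroid, 11.2 in platelet and 10.9 in B cell barcodes, and 0 UMIs in NK cells. In wt it had 27.2 CPM in platelet, 15.4 in erythroid, 8.996 in B cell and 8.04 in T cell barcodes, and 1 UMI in NK cells. S100a9 had 48.7 CPM in db/db T cells, 32.9 in platelet, 27.3 in erythroid and 27.2 in B cell barcodes, and in wt 10.5, 21.1, 25.3 and 16.5 CPM in the same classes. NK cells had 3 S100a9 UMIs in db/db and 4 in wt.

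**Figure D1:**
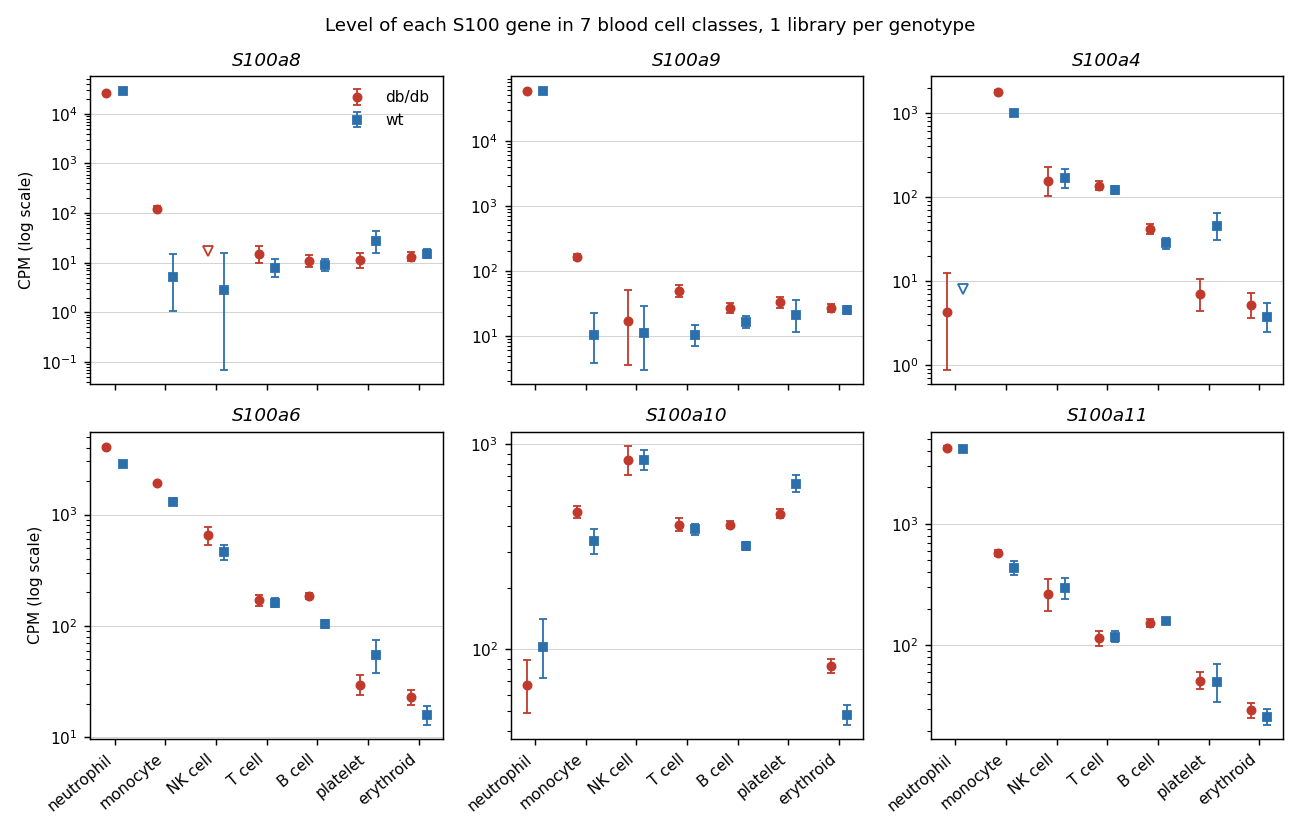
CPM on a log axis of each of the 6 genes in 7 classes, db/db (circles) left of wt (squares), with exact Poisson 95% intervals; open triangles stand at 3 counts where no UMI was seen. S100a8 and S100a9 stand in neutrophils between 26654 and 58496 CPM and at no more than 165 CPM in any other class, while S100a10 is lowest in neutrophils and erythroid barcodes.

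Among neutrophils, S100a8 had 26654 CPM in db/db (26274 to 27038) and 29030 CPM in wt (28483 to 29585). S100a9 had 58496 CPM in db/db and 58403 CPM in wt. The ratio of db/db over wt was 0.918 for S100a8 (0.897 to 0.940) and 1.00 for S100a9 (0.985 to 1.02), and for their sum the log2 ratio of CPM plus 10 was -0.04 (-0.06 to -0.02). The median over all 4084 genes tested in neutrophils, those with 20 or more UMIs summed over both libraries, was -0.19. S100a6 had 4013 CPM in db/db and 2869 CPM in wt, a ratio of 1.40 (1.30 to 1.503), and S100a11 had 4233 and 4095 CPM, a ratio of 1.03 (0.971 to 1.10). None of the 5 members tested passed 1.5-fold on CPM plus 10, the scale of every such count in this report. Of all genes tested, 4.55% were higher by that much in db/db neutrophils and 17.3% were lower. S100a10 had a plain ratio of 0.649 (0.414 to 1.02) and a log2 ratio of -0.56 on CPM plus 10.

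The neutrophil values moved with the haemoglobin of the barcodes, which took 26.9% of the UMIs of db/db neutrophils and 16.9% of those of wt. Against UMIs other than haemoglobin, the log2 ratio of S100a8 plus S100a9 was 0.15 and that of S100a6 was 0.67, past 1.5-fold. In barcodes with under 5% haemoglobin, a limit chosen after the data were seen, these were 0.21 and 0.69. TMM scaling adds 0.31 to every log2 ratio of the class, and under it S100a8 turned to 0.19 and S100a6 went to 0.80.

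Within single neutrophils the calprotectin genes ranged widely and together. S100a8 plus S100a9 took a median of 10.1% of the UMIs other than haemoglobin in db/db neutrophils, with 2.57% at the tenth percentile, 20.7% at the ninetieth and 33.1% in the highest cell. In wt neutrophils the median was 8.80%, with 1.54%, 20.4% and 36.3% at the same points. The distributions overlapped over nearly their whole range, and 1 db/db and 2 wt neutrophils had no UMI of either gene. Across cells, S100a8 and S100a9 had a Pearson r of 0.834 in db/db and 0.863 in wt on log2(UMIs per 10000 other than haemoglobin, plus 1). These are cells of 1 library each, and the points share that library and their depth. S100a6 had a median of 0.472% per db/db neutrophil and 0.296% per wt neutrophil, and S100a11 0.553% and 0.489%.

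**Figure D2:**
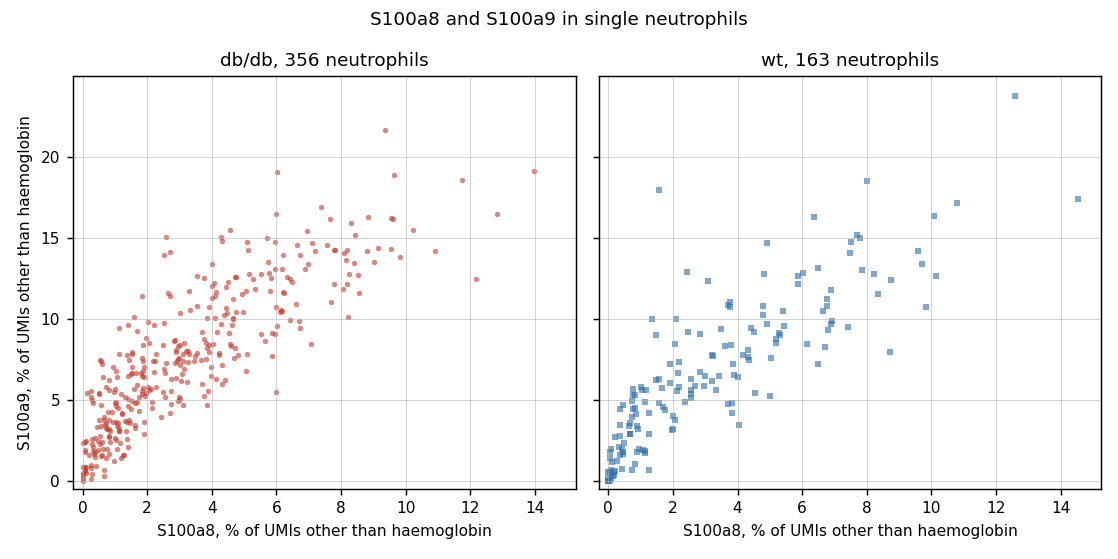
Each point is 1 neutrophil, with S100a8 on the x axis and S100a9 on the y axis as percent of UMIs other than haemoglobin, 356 db/db cells on the left and 163 wt cells on the right. Both clouds start near 0, stretch along the same diagonal and reach similar highest values.

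Neutrophils with any UMI of Camp, Ngp or Ltf, genes of the granules made during neutrophil maturation, numbered only 2 in db/db and 4 in wt. S100a8 and S100a9 stood at 76962 and 180467 CPM in those 2 db/db cells, against 24896 and 56527 CPM in the 4 wt cells. A single db/db cell held 451 of the 461 S100a8 and 1043 of the 1081 S100a9 UMIs, so the db/db level rests on 1 cell. With the 2 db/db and 4 wt cells set aside the levels were 26223 and 57450 CPM in db/db and 29165 and 58465 CPM in wt. S100a4 was all but missing from neutrophils, with 3 UMIs in db/db and 0 in wt, which allows up to 8.12 CPM at 3 counts. S100a10 had 66.7 CPM in db/db neutrophils and 103 CPM in wt neutrophils, seen in 10.7% and 17.2% of cells. After thinning to 1000 UMIs other than haemoglobin these shares were 7.31% and 8.57%, below the 30.3% and 17.95% of erythroid barcodes. Thinning keeps only barcodes with at least 1000 such UMIs, here 301 of 356 and 140 of 163 neutrophils. It kept 580 of 1358 db/db and 440 of 1762 wt erythroid barcodes, those richest in such UMIs. Unthinned, S100a10 was seen in 30.2% and 14.4% of erythroid barcodes. Many of these held markers of other lineages, as counted for T cells below. In barcodes with at least 90% haemoglobin, S100a10 had 15.5 CPM in db/db and 6.27 CPM in wt and was seen in 5.32% and 2.25%. These barcodes were taken before the filter, and most had under 200 genes. Their median depth was 3592 and 3650 UMIs, against 1474 and 1893 in neutrophils. Haemoglobin took 94.4% and 93.1% of the UMIs of these barcodes, against 26.9% and 16.9% in neutrophils. On CPM of UMIs other than haemoglobin, S100a10 was at 277 in these db/db barcodes and lower, at 91.2, in db/db neutrophils. In wt the order was the other, at 90.3 in these barcodes and 124 in neutrophils. How much of the neutrophil level is free RNA was not tested.

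Red cell barcodes, which should lack both genes, gave the level of free S100a8 and S100a9 RNA. In barcodes with at least 90% haemoglobin, 13094 in db/db and 7389 in wt, S100a8 had 305 UMIs in db/db and 112 in wt, or 6.11 CPM (5.45 to 6.84) and 3.96 CPM (3.26 to 4.77). S100a9 had 664 UMIs in db/db and 228 in wt, or 13.3 CPM (12.3 to 14.4) and 8.07 CPM (7.06 to 9.19). A UMI of S100a8 was seen in 2.27% of these db/db barcodes and 1.46% of the wt ones, and of S100a9 in 4.76% and 2.98%, with no barcode above 4 UMIs of either gene. Their sum was 74.0 UMIs per 1000 barcodes in db/db (69.4 to 78.8) and 46.0 in wt (41.3 to 51.2), a ratio of 1.61 (1.42 to 1.83). Median depth was 3592 UMIs in db/db and 3650 UMIs in wt.

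Other transcripts in the haemoglobin barcodes had ratios of db/db over wt on either side of 1. S100a10 was 2.46 times as frequent per db/db barcode as per wt barcode (2.08 to 2.91), Srgn, a granule proteoglycan gene, 3.03 times (2.65 to 3.48) and Retnlg, a neutrophil gene, 3.35 times (1.89 to 6.38). S100a6, at 8.48 UMIs per 1000 barcodes in db/db and 7.85 in wt, and S100a11, at 8.32 and 7.58, were close in both libraries, with overlapping intervals. Il1b, a cytokine gene, was lower in db/db, at 5.96 (4.71 to 7.43) against 9.20 in wt (7.15 to 11.7), and these intervals overlapped too. The count of S100a9 over that of S100a8 was 2.18 in db/db haemoglobin barcodes (1.90 to 2.501) and 2.04 in wt ones (1.62 to 2.58), next to 2.19 in db/db neutrophils and 2.01 in wt neutrophils. Each library's haemoglobin barcodes held both counts in a proportion whose interval includes that of its neutrophils.

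The per-barcode load of S100a8 plus S100a9 in B and NK cells was of the same order as in the haemoglobin barcodes, but that of B cells was above it. B cells had 90.9 UMIs per 1000 barcodes in db/db and 62.0 in wt. That is 1.23 times the haemoglobin barcodes in db/db (1.05 to 1.43) and 1.35 times in wt (1.11 to 1.63). Median depth of B cells was lower, at 2189 and 2281 UMIs against 3592 and 3650. NK cells had 54.5 and 48.1 with wide intervals. Platelet barcodes held 1.63 times the haemoglobin barcodes in db/db (1.35 to 1.95) and 2.35 times in wt (1.58 to 3.38). The part of free RNA in these values was not tested. Erythroid barcodes among the kept ones had 213 in db/db and 161 in wt, with CPM of 40.7 in both and a log2 ratio of 0.00 (-0.19 to 0.20). That class was filled by different clusters, cluster 2 in db/db with 665 barcodes and cluster 3 in wt with 901, and its value moved to 0.70 with at least 500 genes and to -0.68 with every barcode of equal weight. Neutrophils had 168562 UMIs per 1000 barcodes in db/db and 198209 in wt, which is 2278 times the haemoglobin barcodes in db/db and 4308 times in wt.

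**Figure D3:**
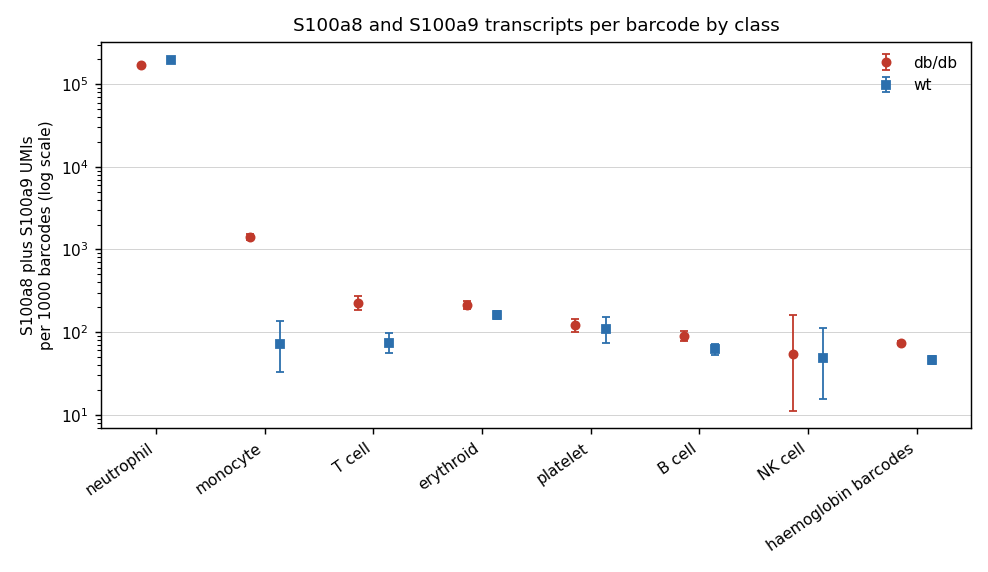
S100a8 plus S100a9 UMIs per 1000 barcodes on a log axis, db/db (circles) left of wt (squares), with exact Poisson 95% intervals. Neutrophils lie at 168562 in db/db and 198209 in wt, and haemoglobin barcodes at 74.0 in db/db and 46.0 in wt, while db/db monocytes stand at 1432 and wt monocytes at 72.6.

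T cells had 226 S100a8 plus S100a9 UMIs per 1000 barcodes in db/db and 74.0 in wt. For S100a9 this gave 48.7 CPM in db/db and 10.5 CPM in wt, a ratio of 4.64 (3.04 to 7.26). On CPM plus 10, S100a9 was the only 1 of 6 members past 1.5-fold in T cells, where 1.38% of all genes were higher and 1.35% lower. S100a8 had a plain ratio of 1.84 (1.02 to 3.35) but a log2 ratio of 0.46 on CPM plus 10, short of the call. A single db/db T cell held 43 of the 92 S100a9 UMIs. Without the cell with most UMIs in each library the ratio was 2.66 (1.64 to 4.395). S100a9 was seen in 8.66% of db/db and 3.63% of wt T cells, below its 11.9% and 9.48% in erythroid barcodes, with medians of 3159 and 3614 UMIs in T cells and 5294 and 3658 in erythroid barcodes. Of the erythroid barcodes, 838 of 1358 in db/db and 883 of 1762 in wt had at least 2 UMIs of another lineage's markers. Their shares may therefore not be those of red cells alone. After thinning, the T cell shares were 3.30% and 1.62%. The erythroid shares were then 5.00% and 3.18%, from the 580 and 440 barcodes deep enough. In haemoglobin barcodes the S100a9 shares were lower than the unthinned T cell shares, at 4.76% and 2.98%. Per barcode, T cells held 3.05 times the S100a8 plus S100a9 of haemoglobin barcodes in db/db (2.505 to 3.69) and 1.61 times in wt (1.18 to 2.15). The part of free RNA in the T cell value was not tested. The direction turned with at least 500 genes per barcode (log2 ratio -1.65) or under 5% mitochondrial UMIs (-1.93).

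Monocytes carried more S100a4 in db/db than in wt. S100a4 had 1783 CPM in db/db monocytes (1723 to 1846) and 996 CPM in wt monocytes (917 to 1081), a ratio of 1.79 (1.64 to 1.96). S100a6 had 1915 and 1308 CPM, a ratio of 1.46 (1.35 to 1.59), S100a10 468 and 338 CPM, a ratio of 1.39 (1.19 to 1.63), and S100a11 577 and 434 CPM, a ratio of 1.33 (1.16 to 1.53). All 4 log2 ratios were above 0, with a median of 0.50, where the median over 7782 genes was -0.04. Of the 6 members, 3 were past 1.5-fold higher in db/db and 0 lower, where 4.64% of all genes tested were higher and 6.39% lower. The 3 were S100a4, S100a8 and S100a9. Across 18 alternatives the log2 ratio of S100a4 stayed between 0.81 and 0.94.

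Each of the 4 genes was higher in classical than in nonclassical monocytes. Classical monocytes, the Ly6c-high cells recruited to inflamed tissue, had 2381 CPM of S100a4 in db/db and 1391 CPM in wt, and nonclassical monocytes, which patrol vessel walls, had 641 and 494 CPM. The classical over nonclassical ratio was 3.71 in db/db (3.35 to 4.13) and 2.82 in wt (2.31 to 3.46) for S100a4, and 3.94 and 3.09 for S100a6. For S100a11 it was 4.67 in db/db (3.82 to 5.77) and 1.96 in wt (1.49 to 2.62). For S100a10 it was 9.64 in db/db (7.12 to 13.4) and 9.48 in wt (5.60 to 17.3), and S100a10 had only 70.1 and 58.8 CPM in nonclassical cells. A classical monocyte held a median of 15 S100a4 UMIs in db/db (0 to 44) and 7 in wt (0 to 28), and of 16 and 8 S100a6 UMIs. The wt range lay within the db/db range for both genes. Median depth was 6209 UMIs in db/db classical monocytes and 7016 in wt ones.

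Classical cells made up 51.6% of db/db monocytes (190 of 368) and 41.1% of wt monocytes (51 of 124), so cluster 15 held most of the class in db/db and cluster 14 in wt. With the subsets weighted as in wt, the db/db over wt ratio was 1.62 for S100a4, 1.32 for S100a6, 1.21 for S100a10 and 1.19 for S100a11. Within classical monocytes alone it was 1.71 for S100a4 (1.55 to 1.89), 1.38 for S100a6 (1.27 to 1.51), 1.21 for S100a10 (1.03 to 1.43) and 1.43 for S100a11 (1.21 to 1.68). Within nonclassical monocytes S100a4 had a ratio of 1.30 (1.06 to 1.60) and S100a6 of 1.08 (0.898 to 1.31), while S100a11 went the other way, at 169 CPM in db/db and 282 CPM in wt (0.599, 0.440 to 0.820).

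S100a8 and S100a9 in db/db monocytes came from a handful of barcodes. The class held 226 S100a8 and 301 S100a9 UMIs in db/db and 3 and 6 UMIs in wt. Of the 527 db/db UMIs, 450 (85.4%) were in 5 cells with 18 to 169 UMIs each, and the sixth had 6. All 5 carried a UMI of Csf1r, Ms4a6c, Ccr2 or Fn1, monocyte markers, and 4 of 5 carried one of Retnlg, Csf3r, Cxcr2 or Mmp9, neutrophil markers, as did 102 of the other 363. The part of these markers in the result was not tested. The other 363 db/db cells had 43.1 CPM of both genes together (34.0 to 53.9), and without the top 5 the wt cells had 5.47 CPM (1.13 to 15.98). Leaving out cells with at least 2 UMIs of another lineage's markers took the log2 ratio of S100a9 to 0.25 and that of S100a8 to 2.48. S100a9 was seen in 5.71% of db/db and 4.03% of wt monocytes, below the erythroid shares of 11.9% and 9.48% and above the haemoglobin barcode shares of 4.76% and 2.98%. S100a8 was seen in 13.04% of db/db and 2.42% of wt monocytes, the latter 3 of 124 cells. S100a8 thus stood above its 6.55% in db/db erythroid barcodes and below its 5.39% in wt ones, and above its 2.27% and 1.46% in haemoglobin barcodes. After thinning to 1000 UMIs other than haemoglobin it was seen in 3.67% of db/db monocytes (1.97 to 6.20) and 2.59% of db/db erythroid barcodes (1.45 to 4.23), with overlapping intervals. Thinning kept 354 of the 368 db/db monocytes but 580 of the 1358 db/db erythroid barcodes. Many erythroid barcodes held markers of other lineages, as given for T cells.

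**Figure D4:**
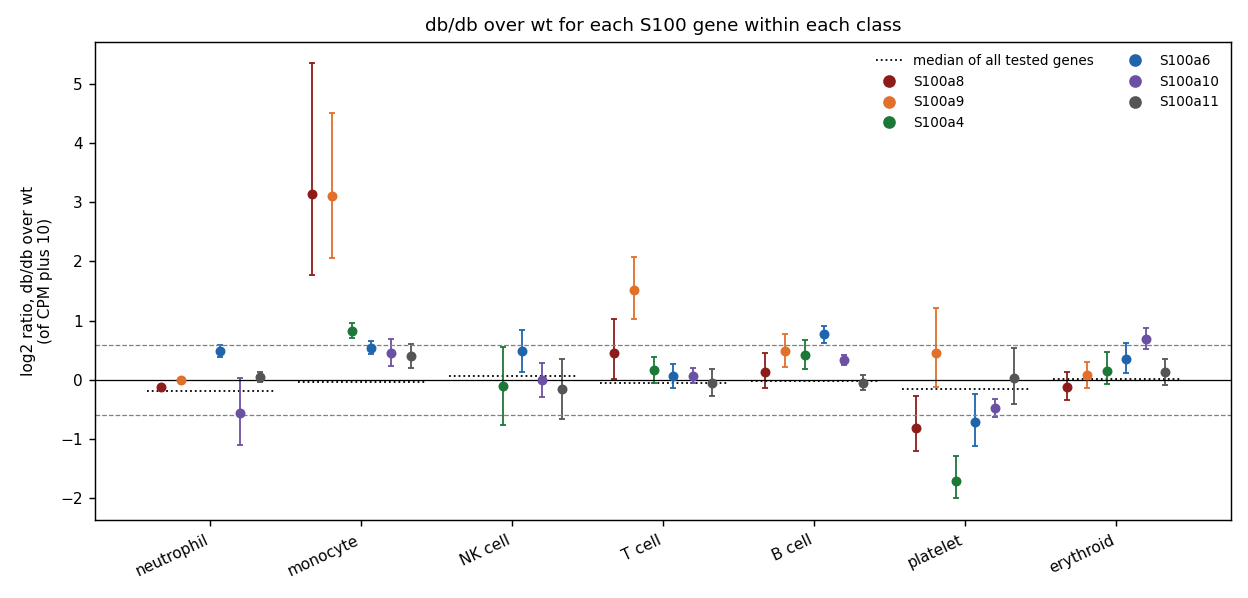
log2 ratio of db/db over wt (CPM plus 10) for each gene with at least 20 UMIs in a class, with 95% counting intervals; dashed lines mark 1.5-fold and dotted lines the median of all genes tested in the class. Monocytes are the only class in which every member shown lies above 0, and S100a4 of platelet barcodes is the lowest point.

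In B cells S100a6 had 185 CPM in db/db (173 to 197) and 104.5 CPM in wt (96.6 to 113), a ratio of 1.77 (1.60 to 1.96). It was seen in 11.7% of db/db and 5.56% of wt B cells, and in 6.84% and 3.26% after thinning. S100a4 had 41.2 CPM in db/db and 28.1 CPM in wt (ratio 1.46, 1.19 to 1.80), S100a10 406 and 320 CPM (1.27, 1.19 to 1.35) and S100a11 154 and 159 CPM (0.967, 0.879 to 1.06). S100a6 was the 1 member of 6 past 1.5-fold, where 0.777% of all genes tested were higher and 1.15% lower. The call was lost at a log2 ratio of 0.58 without cells of several lineages and at 0.49 with under 5% haemoglobin.

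Most of the S100a6 and S100a4 of B cells sat in 1 cluster. Cluster 0, with 913 db/db and 1250 wt cells and the largest in wt, had 325 CPM of S100a6 in db/db and 179 CPM in wt, and 73.6 and 48.0 CPM of S100a4. Cluster 1, with 1142 and 420 cells and most of the class in db/db, had 43.2 and 11.6 CPM of S100a6, and cluster 6, led by Vpreb3 and other genes of young B cells, 23.8 and 3.76 CPM. S100a10 was spread evenly by comparison, at 444 and 358 CPM in cluster 0, 367 and 314 CPM in cluster 1 and 386 and 284 CPM in cluster 6. Cells with at least 3 S100a6 UMIs were 81 of the db/db B cells (3.76%) and 49 of the wt ones (1.95%). S100a4 was seen in 44.4% of these 81 db/db cells and 63.3% of the 49 wt cells, against 1.84% of db/db and 0.926% of wt B cells with no S100a6 UMI. Zbtb32 and Bhlhe41, genes of memory-like and B1 cells singled out after their values were seen, were found in 16.05% and 18.5% of the 81 db/db cells and in 24.5% and 20.4% of the 49 wt cells, against 0.315% and 1.10% of the db/db and 0.126% and 2.19% of the wt cells without S100a6. Median depth was 3661 and 4381 UMIs in the cells with S100a6 and 2135 and 2244 in those without. One wt B cell held 101 of the 639 wt S100a6 UMIs, and without the highest cell of each library the ratio was 2.01 (1.81 to 2.24).

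In T cells as a class the 4 broadly expressed genes differed by less than counting error. S100a4 had 136 CPM in db/db and 121 CPM in wt, S100a6 170 and 161 CPM, S100a10 406 and 386 CPM and S100a11 114 and 118 CPM. Their ratios lay between 0.967 and 1.13, each interval held 1, and the lowest and highest bounds were 0.812 and 1.33. The median log2 ratio of the 4 was 0.07, and without cells of several lineages -0.34, with S100a6 then at -0.67.

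Among all Cd8 T cells S100a6 and S100a4 were lower in db/db by UMIs. The share of cells with S100a6 was not lower over all Cd8 T cells, but it was lower in each part split by Ccl5. Over all Cd8 T cells S100a6 had 103 CPM in db/db and 161 CPM in wt, a ratio of 0.643 (0.5004 to 0.821), while it was seen in 14.6% of db/db and 11.5% of wt cells, and in 9.95% and 6.35% after thinning. S100a4 had 57.8 and 87.9 CPM, a ratio of 0.658 (0.468 to 0.915), and was seen in 6.39% and 6.75%. Among T cells with a Cd8a or Cd8b1 UMI and none of Cd4, those with a UMI of Ccl5, a chemokine gene of memory and effector cells, numbered 91 in db/db and 43 in wt. S100a6 had 185 CPM in these db/db cells (88 UMIs) and 716 CPM in the wt cells (150 UMIs), a ratio of 0.258 (0.196 to 0.338), and S100a4 had 86.1 and 239 CPM, a ratio of 0.361 (0.233 to 0.557). S100a10 had 408 and 506 CPM (0.806, 0.633 to 1.03). In Cd8 cells without Ccl5, S100a6 was down at 24.4 CPM in db/db (12 UMIs in 3 cells) and 49.0 CPM in wt (51 UMIs in 6 cells). S100a6 was seen in 31.9% of db/db and 53.5% of wt Cd8 cells with Ccl5, and in 2.34% and 2.87% of those without. The intervals overlapped in both parts. Cells with Ccl5 were 91 of 219 Cd8 cells in db/db and 43 of 252 in wt, so the share over all Cd8 cells mixes the parts in different proportions. The Ccl5-positive over Ccl5-negative ratio of S100a6 was 7.59 in db/db (4.14 to 15.3) and 14.6 in wt (10.6 to 20.5). That of S100a10 was 1.31 in db/db (1.06 to 1.63) and 1.45 in wt (1.15 to 1.80), and that of S100a11 1.26 (0.819 to 1.94) and 1.25 (0.810 to 1.88). Over all Cd4 T cells the direction was the other, with S100a6 at 154 CPM in db/db and 92.0 CPM in wt, a ratio of 1.68 (1.11 to 2.51). Cd4 T cells without Ccl5 had S100a6 at 19.0 CPM in db/db (5 UMIs in 85 cells) and 91.2 CPM in wt (62 UMIs in 184 cells), a ratio of 0.209 (0.0654 to 0.513). Only 3 db/db and 4 wt Cd4 cells had Ccl5, and they held 38 and 2 S100a6 UMIs. Over all T cells without Ccl5, whatever their Cd4 and Cd8, S100a6 was higher in db/db by UMIs, at 127 and 99.7 CPM (1.28, 1.05 to 1.56). So was S100a4, at 127 and 103 CPM (1.24, 1.01 to 1.505). The shares of cells were close, at 5.69% and 5.32% for S100a6 and 5.21% and 5.16% for S100a4. After thinning they were 3.76% and 4.33% for S100a6, and 3.76% and 3.99% for S100a4. Among all T cells, 1 db/db cell held 49 of the 321 S100a6 UMIs. Without the highest cell of each library the S100a6 ratio of all T cells was 0.975 (0.834 to 1.14). Cells with Cd8 or Cd4 alone held 100 and 43 of the 321 S100a6 UMIs of db/db T cells and 201 and 64 of the 462 of wt T cells, and the rest lay in cells with neither or both. T cells with at least 2 UMIs of another lineage's markers numbered 118 of 531 in db/db and 105 of 716 in wt, and without them the class values are those given above.

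**Figure D5:**
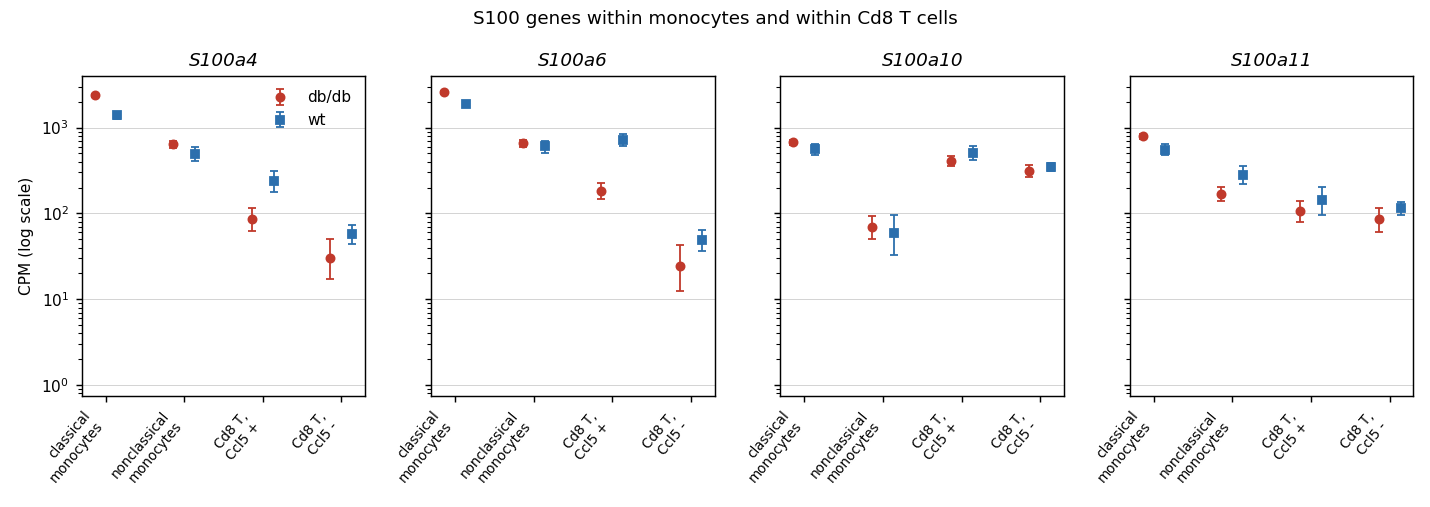
CPM on a log axis of the 4 broadly expressed genes in classical and nonclassical monocytes and in Cd8 T cells with and without Ccl5, db/db (circles) left of wt (squares), with exact Poisson 95% intervals. In Cd8 T cells with Ccl5, S100a6 stands at 185 CPM in db/db and 716 CPM in wt, while in classical monocytes S100a4 stands at 2381 CPM in db/db and 1391 CPM in wt.

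NK cells had the highest S100a10 of the 7 classes, at 839 CPM in both libraries (709 to 987 in db/db and 747 to 940 in wt). Per 1000000 UMIs other than haemoglobin, platelet barcodes stood above them, at 1028 in db/db and 1209 in wt, against 909 and 995 in NK cells. In db/db the next classes were monocytes (468 CPM), platelets (460 CPM), B cells (406 CPM) and T cells (406 CPM), where monocytes and platelets had overlapping intervals, as had B and T cells. In wt they were platelets (643 CPM), T cells (386 CPM), monocytes (338 CPM) and B cells (320 CPM), where T cells and monocytes had overlapping intervals, as had monocytes and B cells. S100a6 of NK cells was at 650 CPM in db/db and 459 CPM in wt, a ratio of 1.42 (1.10 to 1.81), and S100a4 at 155 and 167 CPM. None of the 4 members tested in NK cells passed 1.5-fold, where 13.5% of all genes were higher and 10.5% lower in 55 against 104 cells.

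Platelet barcodes were of 3 kinds, and only cluster 11 had no second set of markers. In it, with 332 db/db and 123 wt barcodes, S100a10 reached 2009 CPM in db/db (1861 to 2166) and 1852 CPM in wt (1640 to 2084), a ratio of 1.08 (0.942 to 1.25), above its level in NK cells. For the whole platelet class it had 460 and 643 CPM, but cluster 8, with 7 B cell markers among its leading genes, and cluster 10, rich in haemoglobin, held 431 and 380 of the 1143 db/db barcodes and 79 and 94 of the 296 wt ones, and the largest cluster of the class was cluster 8 in db/db and cluster 11 in wt. Of the 6 members 3 were past 1.5-fold lower in db/db platelet barcodes, S100a8, S100a4 and S100a6, where 12.5% of all genes tested were lower and 2.57% higher. S100a8 rested on 35 UMIs in db/db and 18 in wt, a ratio of 0.411 (0.227 to 0.772). S100a9 lay on the other side of 1, at 1.56 (0.887 to 2.95), and the sum of the 2 genes was at 0.913 (0.618 to 1.39). S100a4 rested on 22 and 30 UMIs and S100a6 on 92 and 36, and in wt 1 barcode held 20 of the S100a4 and 1 held 21 of the S100a6 UMIs. Without the barcode with most UMIs in each library the ratio was 0.376 for S100a4 (0.165 to 0.912), in place of 0.155, and 1.14 for S100a6 (0.654 to 2.13), in place of 0.541. In cluster 11 alone, S100a4 had 5 UMIs in db/db and 26 in wt, a ratio of 0.0843 (0.0253 to 0.223). S100a6 had 7 and 28 UMIs there, a ratio of 0.110 (0.0404 to 0.257). The wt barcodes with 20 and 21 UMIs lie in that cluster.

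Erythroid barcodes had 1 member past 1.5-fold, S100a10, at 83.1 CPM in db/db and 47.8 CPM in wt (1.74, 1.52 to 2.00), where 2.56% of all genes tested were higher and 1.13% lower. Leaving out the cluster that also had B cell markers took its log2 ratio to 0.22, and leaving out cells of several lineages to -0.04. S100a6 had 22.9 and 15.7 CPM and S100a11 29.4 and 25.9 CPM there.

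Across the 14 sums of class and library, S100a8 and S100a9 had a Pearson r of 0.994 on log2(CPM plus 10), and S100a6 and S100a11 one of 0.948. S100a10 ran against both calprotectin genes (-0.554 and -0.544). These 14 points share 2 libraries, and the values are descriptions. S100a8 and S100a9 stood at 26654 CPM or more in neutrophils and at no more than 165 CPM in any other class. Each r with either gene, here and below, thus mostly contrasts neutrophils with the other classes. Outside the family, and among 8211 genes with at least 200 UMIs, the patterns most like S100a8 were those of Lrg1 (0.992), Stfa2l1 (0.986) and Csf1 (0.985), and most like S100a9 those of Lrg1 (0.995), Stfa2l1 (0.990) and Cxcr2 (0.989). For S100a4 they included Pepd (0.973) and Dbi (0.953), and for S100a6 they were Mrpl33 (0.986), Cln3 (0.979) and Relt (0.977). For S100a10 they were Pygb (0.965), Fkbp1a (0.957) and Fez2 (0.953), and for S100a11 Atg3 (0.987), Picalm (0.986) and Dhrs7 (0.986).

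Genes listed as partners or regulators of S100 proteins were counted past 1.5-fold in each class. Over all genes tested, 4.64% were that much higher and 6.39% lower in db/db monocytes, 4.55% and 17.3% in neutrophils, 13.5% and 10.5% in NK cells, and 2.57% and 12.5% in platelet barcodes. In B cells 0.777% were higher and 1.15% lower, in T cells 1.38% and 1.35%, and in erythroid barcodes 2.56% and 1.13%. Of 6 annexins tested in monocytes, only Anxa1, the partner of S100a11, was past 1.5-fold, at 345 CPM in db/db and 190 CPM in wt (log2 ratio 0.83). Anxa2, the partner of S100a10, had 479 and 355 CPM (0.42). In neutrophils 2 of 5 annexins tested were past it, Anxa1 at 976 and 633 CPM (0.62) and Anxa6 at 80.9 and 37.9 CPM (0.92), and in NK cells 1 of 4, in B, T and erythroid cells 0 of 6 each, while in platelet barcodes 1 of 6 was lower. Of the receptors and binding partners, Cd33 was higher in monocytes (41.6 and 13.8 CPM, 1.12) and Cd68, at 29.8 CPM in db/db and 62.2 CPM in wt, lower in neutrophils (-0.86), 1 of 9 and 1 of 8 tested. In the other classes none of that list was higher past 1.5-fold, and 2 of 6 were lower in platelet barcodes (Ahnak and Myh9), 1 of 8 in B cells (Cd36), 1 of 6 in erythroid barcodes (Ahnak), 0 of 5 in T cells and 0 of 5 in NK cells. Tlr4, a receptor of S100a8 and S100a9, had 53.9 and 59.5 CPM in neutrophils. Of the regulators, Cebpb, a factor of myeloid genes, had 1930 CPM in db/db neutrophils and 1242 CPM in wt neutrophils (0.63), 1 of 5 past 1.5-fold, and Cebpa 103 and 37.9 CPM in monocytes (1.24), 1 of 7. In platelet barcodes 3 of 5 regulators were past 1.5-fold lower, Stat3, Hif1a and Klf4, with a list median of -0.63 beside -0.16 over all genes, and the count was 0 of 6 in B cells, 0 of 5 in T cells, 0 of 1 in NK cells and 0 of 6 in erythroid barcodes. Of the other S100 genes, S100a13 was within 1.5-fold in all 7 classes, and S100a1 was past it in B and T cells (0.61 in each), at 8.94 and 2.45 CPM in B cells and 11.1 and 3.84 CPM in T cells. Of 8 further neutrophil genes, 5 were past 1.5-fold higher in db/db neutrophils, Retnlg among them at 7563 and 2214 CPM (1.77), and 0 lower. The 8 include Camp, Ngp and Ltf, whose values rest on only 2 db/db and 4 wt neutrophils.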

How the data were processed

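The members and gene lists were chosen with earlier results of these data known. The deposited matrices hold raw counts, whole-number UMIs per gene and barcode, made with Cell Ranger 3.0.2 on mm10, per the submitters' processing notes. Kept barcodes were clustered together in Python 3.11.15 with scanpy 1.11.5 (2000 variable genes without S100 genes, 30 components, 15 neighbours, Leiden resolution 1). A cluster took the name of a class with at least 3 markers among its 50 leading genes. No doublet caller was used; cells with markers of several lineages were left out as an alternative. UMIs were summed per class and library, with exact Poisson intervals for CPM, exact binomial intervals for shares and conditional binomial intervals for ratios (scipy 1.17.1), tested on simulated data. Log2 ratios use CPM plus 10. With 1 library per group, "past 1.5-fold" on that scale takes the place of a test. Where a sum had 0 UMIs, 3 counts were its upper limit. TMM factors came from edgeR 4.0.16. Other alternatives changed the gene and mitochondrial limits, the clustering, the denominator and the pseudocount. Named genes are the members, for each the 3 genes of most alike pattern (1 of them is not reported here), and lists of annexins, binding partners and receptors, regulators, other S100 genes and neutrophil genes. UMIs of S100a11 and of its pseudogene may not be fully separable.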

Additional observations from a re-analysis of the deposited data

How the results depend on the processing

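Each member's log2 ratio in each class was recomputed under up to 18 alternatives, 4 of them chosen after the data were seen; 575 values stayed within the counting interval of the main value, 112 moved beyond it and 7 reversed a value past 1.5-fold. For S100a8 plus S100a9 in neutrophils, -0.04 became 0.00027 with at least 500 genes, -0.080 under 5% mitochondrial UMIs, 0.15 against UMIs other than haemoglobin, 0.28 with TMM, 0.063 with every cell of equal weight, 0.036 without cells of several lineages and 0.21 with under 5% haemoglobin. For the 4 broad genes, the monocyte median of 0.50 became 0.71 and the T cell median of 0.07 became -0.34 without cells of several lineages. The B cell median of 0.38 became 0.62 under 20% mitochondrial UMIs and 0.22 with under 5% haemoglobin. For S100a8 plus S100a9 in erythroid barcodes, 0.00 became 0.55 with at least 100 genes, 0.70 with at least 500 and -0.68 with equal weight. S100a9 in T cells reversed to -1.65 with at least 500 genes and -1.93 under 5% mitochondrial UMIs. Without cells of several lineages, S100a4 (0.021) and S100a6 (0.57) in platelet barcodes and S100a10 in erythroid barcodes (-0.036) reversed. S100a6 in platelet barcodes also did with equal weight (0.47) and without the barcode with most UMIs (0.14). With clusters holding markers of 2 classes left out, the platelet values went the other way. S100a4 then moved from -1.70 to -2.90 and S100a6 from -0.71 to -2.69. Members past 1.5-fold numbered 3 to 4 in monocytes, 0 to 2 in B cells and 0 in NK cells under every alternative that gave a value. The causes were not tested. TMM scaling shifts log2 ratios by 0.32 in platelet barcodes, 0.10 in monocytes and -0.13 in NK cells. Too few NK cells were left without cells of several lineages, or with under 5% haemoglobin, to give a value. No paired analysis was possible because each group has 1 library, and for the same reason no replicate could be left out.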
